A study of Mus musculus with 17 samples.

Results

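The core circadian clock genes are described here in sorted mouse alveolar epithelial type 2 (AT2) cells, the surfactant-making cells of the lung alveolus. The 10 members (Per1, Per2, Per3, Cry1, Cry2, Arntl, Npas2, Nr1d1, Nr1d2 and Dbp) were fixed by symbol and matched to Ensembl gene identifiers, and all 10 were found among the 43430 gene rows of each count table. All 17 libraries came from C57BL/6J mice aged 2 months with no engineered allele named in the labels. The poly(A) libraries were made 24 h after vehicle (4 libraries) or after ISRIB (4 libraries), a small molecule that counteracts the integrated stress response, in mice without lung injury. The total-RNA kit was used for 4 libraries of uninjured (naive) mice and for 5 made 14 days after mice received bleomycin, which damages the alveolar epithelium; the treatment label of both these groups is vehicle. Neither the dose of either drug nor the time of day at which cells were collected is stated in the labels, and nothing there says whether replicates were separate animals, so p-values measure the spread between these libraries.

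The clock is a feedback loop of transcription. BMAL1, the product of Arntl, pairs with CLOCK or its paralogue NPAS2 and activates genes that carry E-boxes, among them the Per and Cry genes, the nuclear receptor genes Nr1d1 and Nr1d2 (REV-ERBα and REV-ERBβ) and Dbp. PER and CRY proteins then inhibit BMAL1 and its partner, REV-ERB proteins repress Arntl and Npas2 through RORE sequences, and DBP activates genes through D-boxes. As a result Arntl and Npas2 peak in most tissues at a different time of day from Nr1d1, Nr1d2 and Dbp, and the lung keeps such a rhythm. Because the collection times are not known, a difference in clock phase between groups and a difference in level at the same phase cannot be told apart in these data.

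Stretches upstream of the start sites of 4 members, and a site in Arntl, are printed because control sequences through which the loop is known to act were found in them. They are RefSeq promoter windows on GRCm38.p6 (250 bases before to 50 after the annotated start), read 5′ to 3′ on the gene's strand with annotated exon left out, and capitals mark motif matches. The Per1 stretch lies at chr11:69098699-69098947 (plus strand), Per3 at chr4:151044666-151044915 (minus strand), Cry1 at chr10:85185065-85185304 (minus strand) and Nr1d1 at chr11:98775378-98775627 (minus strand). The Arntl line is a site of 30 bases at chr7:113207530-113207559 (plus strand) within an annotated first exon.
Per1: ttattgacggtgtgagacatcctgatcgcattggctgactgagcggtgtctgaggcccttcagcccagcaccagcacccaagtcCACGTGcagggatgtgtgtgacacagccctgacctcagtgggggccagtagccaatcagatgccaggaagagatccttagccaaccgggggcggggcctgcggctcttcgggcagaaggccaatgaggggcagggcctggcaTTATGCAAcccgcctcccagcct
Per3: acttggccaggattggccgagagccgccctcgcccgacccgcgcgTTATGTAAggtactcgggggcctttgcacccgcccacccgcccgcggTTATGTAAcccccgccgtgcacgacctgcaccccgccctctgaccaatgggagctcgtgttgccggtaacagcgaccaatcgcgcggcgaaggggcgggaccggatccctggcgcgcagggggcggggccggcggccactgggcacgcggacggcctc
Cry1: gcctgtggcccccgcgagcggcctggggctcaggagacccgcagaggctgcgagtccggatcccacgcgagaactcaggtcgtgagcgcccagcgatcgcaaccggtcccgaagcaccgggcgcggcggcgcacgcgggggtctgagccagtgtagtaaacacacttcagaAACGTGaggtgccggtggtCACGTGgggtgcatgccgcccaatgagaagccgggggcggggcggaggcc
Nr1d1: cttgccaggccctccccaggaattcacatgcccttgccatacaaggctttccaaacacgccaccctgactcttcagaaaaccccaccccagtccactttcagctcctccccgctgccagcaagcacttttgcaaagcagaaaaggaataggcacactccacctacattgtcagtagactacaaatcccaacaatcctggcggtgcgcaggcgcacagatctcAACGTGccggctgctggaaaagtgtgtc
Arntl: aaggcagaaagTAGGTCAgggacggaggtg

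Windows were found for 9 of the 10 members (11 windows in all). Motifs were searched on both strands as the E-box CACGTG, the E-prime-box CACGTT, the D-box TTATGTAA, TTATGCAA or TTACGTAA, the RORE core TAGGTCA or TGGGTCA, and the cyclic AMP response element TGACGTCA, and none of these overlapped another in the members' windows. The Per1 window whose stretch is printed held CACGTG with its first base at -166 from the start and TTATGCAA at -24. Another Per1 window, with its upstream stretch at chr11:69099902-69100151, held none of these motifs. Per3 held TTATGTAA at -205 and again at -158. Cry1 held CACGTG at -60 and, read on the other strand (AACGTG as printed), CACGTT at -79, and Nr1d1 held CACGTT on the other strand at -28. Cry2 also held CACGTT on the other strand, at -166, and the Arntl site held TAGGTCA at 31 after the start. Another Arntl window, with its upstream stretch at chr7:113207215-113207464, held none of these motifs. Of 32851 windows of the same length, 7.15% held the E-box, 4.68% the E-prime-box, 1.78% a D-box, 6.45% an RORE core and 1.79% the cyclic AMP response element. The windows of Npas2, Nr1d2 and Dbp held none of these letters, which says nothing about binding elsewhere. A match is a description of the sequence and not evidence of a site in use.

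Depth and purity set the precision of what follows. Library totals ran from 10493574 to 15727139 counts with the poly(A) kit and from 3295257 to 6333166 with the total-RNA kit, so low members such as Dbp are less certain after bleomycin. The summed level of 10 alveolar type 2 markers was 177000 to 190000 CPM (counts scaled by library size with trimmed-mean factors) in the poly(A) libraries, 80800 to 88200 in naive and 50400 to 88700 in bleomycin libraries, and every one of these markers had counts in each group. Neutrophil markers summed to at most 1.8 CPM and lymphocyte markers to at most 1.68 CPM in any library of the bleomycin experiment. Fibroblast markers summed to 3.87 to 10.1 CPM in naive libraries and to 17.5 to 115 CPM after bleomycin (6 of 8 with any count, with Lum and Tcf21 at 0), with bleomycin 2 the highest at 115 and bleomycin 1 next at 54.5. Alveolar type 1 markers summed to 963 to 1190 CPM in naive and 1400 to 1770 CPM in bleomycin libraries. Macrophage markers without Lyz2, which AT2 cells also express, summed to 10.5 to 15.4 CPM in naive and 8.39 to 14.4 CPM in bleomycin libraries (Adgre1, Marco, C1qa and C1qb at 0), endothelial markers to 15.8 to 26.8 and 16.9 to 55.7 CPM, and airway markers to 482 to 956 and 550 to 974 CPM. In the poly(A) libraries the airway sum was 3910 to 4360 CPM after vehicle and 2420 to 4220 CPM after ISRIB, lowest in ISRIB 4, and the fibroblast sum was 16.7 to 25.3 and 11.2 to 24.8 CPM. These are sorted bulk samples, in which fewer cells of a type and less RNA per cell cannot be told apart.

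Bleomycin 2 stood apart from its group in the clock genes. Its median absolute log2 difference from the other bleomycin libraries was 1.09 over the 10 members, against 0.353 to 0.518 for each of the other 4, while over all 11223 genes tested it was 0.293, inside the range of the others (0.219 to 0.354). It had the highest Nr1d1, Nr1d2 and Dbp and the lowest Cry1, Arntl and Npas2 of the bleomycin group. In the naive group the same measure was 0.144 to 0.198 over the members. Among the poly(A) libraries it was highest in vehicle 3 (0.475), where Nr1d1, Nr1d2 and Dbp were each the highest of the vehicle group, and 0.164 to 0.376 in the other seven. Several results after bleomycin, though not all, are therefore given with and without bleomycin 2. Because the members' own values singled it out, fits without it describe these libraries and are no independent test.

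**Figure D1:**
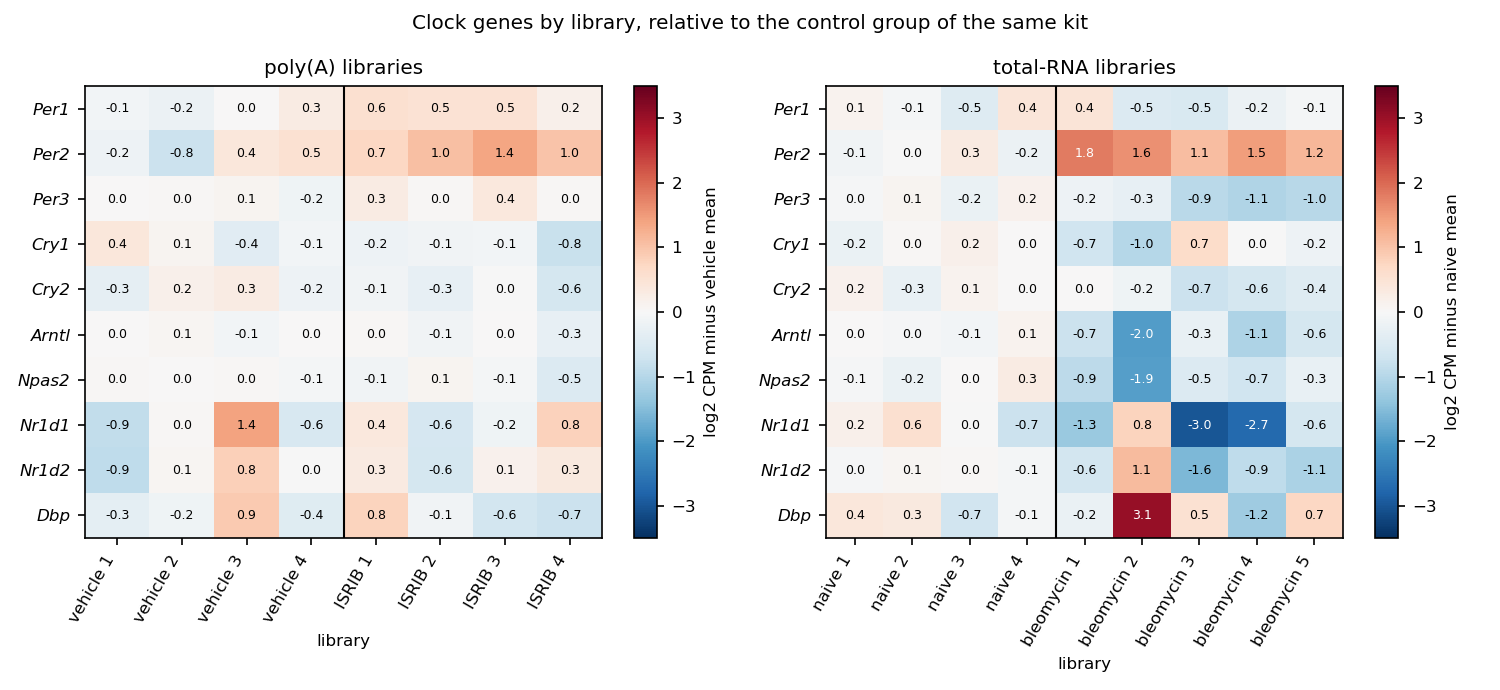
Log2 CPM of each clock gene (rows) in each library (columns) minus the mean of the control group of the same kit, vehicle at left and naive at right; the line separates control from treated libraries, and the colour scale runs from blue (lower) to red (higher). Per2 was above the naive mean in all 5 bleomycin libraries, and bleomycin 2 combined the lowest Arntl (19.3 CPM) and Npas2 (19.7 CPM) with the highest Nr1d1 (51.4 CPM), Nr1d2 (44.2 CPM) and Dbp (22.6 CPM) of its group.

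Within each kit the levels were ordered per kilobase of annotated exon, to allow for gene length. All annotated exons of a gene entered its length, whether or not they are in use in these cells. In vehicle libraries the mean CPM per kilobase was 11.5 for Npas2, 11.4 for Nr1d1, 10.7 for Cry1, 9.37 for Per1, 7.21 for Cry2, 7.07 for Arntl, 4.63 for Nr1d2, 1.22 for Per3, 1.11 for Per2 and 0.767 for Dbp. Among neighbours in that order the ranges over the 4 libraries overlapped except between Nr1d2 and Per3, so the upper 7 members were separated from the lower 3. Naive libraries, from the other kit, gave 16 for Npas2, 13.6 for Per1, 10.3 for Nr1d1, 10 for Arntl, 9.23 for Cry2, 7.71 for Cry1, 4.14 for Per3, 3.75 for Nr1d2, 2.44 for Per2 and 0.872 for Dbp. Neighbours there did not overlap between Cry1 and Per3, between Nr1d2 and Per2, and between Per2 and Dbp. Dbp thus had the lowest mean per kilobase in both control groups, and Npas2, the CLOCK paralogue, had the highest mean in both. In vehicle libraries the range of Dbp (0.519 to 1.36) overlapped those of Per2 (0.618 to 1.52) and Per3 (1.09 to 1.3). After ISRIB, Per2 (2.20 CPM per kilobase) stood above Per3 (1.39) without overlap, whereas their ranges overlapped after vehicle. That order depends on the exon lengths used (5856 bases for Per2, 9608 for Per3). In CPM their ranges overlapped after ISRIB (10.2 to 16.1 for Per2, 11.9 to 15 for Per3). After vehicle, Per3 lay above Per2 in CPM (10.5 to 12.5 against 3.62 to 8.93). In bleomycin libraries Per2 stood at rank 5 with 6.66 CPM per kilobase, and every pair of neighbours overlapped.

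Whether ISRIB altered the clock genes of uninjured AT2 cells was asked by comparing 4 ISRIB with 4 vehicle libraries. Per1 and Per2, which encode inhibitors of the loop, rose after ISRIB, and the other 8 members did not pass the test. Per2, the period gene with the larger change, overlapped Per3 per kilobase after vehicle and lay above it after ISRIB, an order that depends on the exon lengths used. All 10 members passed the low-count filter, 3 with a positive and 7 with a negative log2 fold change. The 2 calls, both higher, compare with 2.20% of all 12054 genes called in either direction and 1.10% called higher (edgeR quasi-likelihood test, Benjamini-Hochberg adjusted p under 0.05). At an unadjusted p under 0.05 stood 3 members, and the members' median log2 fold change was -0.10 beside 0.00 (-0.000137) over all genes. The median absolute log2 fold change was 0.17 over the members and 0.10 over all genes.

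Per2 (ENSMUSG00000055866, chromosome 1, 91415982 to 91459324, GRCm38) was measured at 5.44, 3.62, 8.13 and 8.93 CPM in vehicle libraries 1 to 4 and at 10.2, 12.8, 16.1 and 12.4 CPM in ISRIB libraries 1 to 4. No vehicle library reached the lowest ISRIB library. Groups were separated in this way for 8.65% of all genes tested (4.26% higher, 4.39% lower). Behind these values were 40 to 124 counts per vehicle library and 141 to 180 counts per ISRIB library. The log2 fold change was 0.96 (SE 0.21, adjusted p = 0.0208 by edgeR). It was the only member whose groups did not overlap. The call was lost without vehicle 1 (0.88, edgeR adjusted p = 0.0787), vehicle 2 (0.77, adjusted p = 0.0573) or ISRIB 3 (0.84, adjusted p = 0.0612).

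Per1 (ENSMUSG00000020893, chromosome 11, 69095217 to 69109960), the period gene with E-box and D-box letters in the stretch printed above, was measured at 48.8, 45.1, 53.0 and 64.0 CPM after vehicle and at 77.6, 74.4, 74.4 and 59.1 CPM after ISRIB. ISRIB libraries 1 to 3 lay above all vehicle libraries, and ISRIB 4 lay below vehicle 4, so that the groups overlapped. The mean was 52.8 ± 8.18 CPM (SD, n = 4) after vehicle and 71.4 ± 8.30 CPM (SD, n = 4) after ISRIB. The log2 change was 0.44 with SE 0.10 (adjusted p = 0.0255, edgeR). The direction held with any 1 library left out, at 0.37 to 0.54, but the call was lost without vehicle 1 (0.41, edgeR adjusted p = 0.0951), vehicle 2 (0.37, 0.0939), vehicle 3 (0.44, 0.0511), ISRIB 1 (0.40, 0.0598), ISRIB 2 (0.42, 0.0570) or ISRIB 3 (0.42, 0.0596).

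Per3 (chromosome 4, 151003652 to 151044665), the period gene with a pair of D-boxes upstream, gave 11.8, 11.9, 12.5 and 10.5 CPM after vehicle and 14.4, 11.9, 15 and 11.9 CPM after ISRIB. ISRIB 1 and ISRIB 3 were above the vehicle range and the other two within it. Its log2 fold change of 0.18 (SE 0.11, adjusted p = 0.447, edgeR) did not pass the test.

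Cry1 and Cry2 encode cryptochromes, the partners of PER proteins, and had lower means after ISRIB without passing the test. Cry1 (chromosome 10, 85131700 to 85185064) was at 45.6, 37.5, 26.7 and 32.6 CPM after vehicle and at 30.8, 32.0, 32.6 and 20.4 CPM after ISRIB, with a log2 fold change of -0.29 with SE 0.15 (adjusted p = 0.357, edgeR). Cry2 (chromosome 2, 92403646 to 92434043) was at 36.4, 50.7, 55.3 and 40.1 CPM after vehicle and at 41.2, 36.9, 44.2 and 29.2 CPM after ISRIB, with a log2 fold change of -0.27 with SE 0.13 (adjusted p = 0.305, edgeR). ISRIB 4 held the lowest level of both genes in any poly(A) library, and the groups overlapped otherwise.

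Among the activators, Arntl (chromosome 7, 113207465 to 113314126) kept within a narrow range across the poly(A) libraries. It was at 53.1, 56.2, 50 and 53.4 CPM after vehicle and at 54.1, 49.0, 53.6 and 43.5 CPM after ISRIB, with a log2 fold change of -0.08 with SE 0.07 (adjusted p = 0.639, edgeR). Npas2 (chromosome 1, 39193731 to 39363236) was at 56.3, 55.8, 56.6 and 52.3 CPM after vehicle and at 50.5, 59.5, 52.8 and 39.4 CPM after ISRIB, with a log2 fold change of -0.13 with SE 0.09 (adjusted p = 0.537, edgeR). ISRIB 4 was again the lowest library for both genes, and also had the lowest airway marker sum (2420 CPM), whose part in these values was not tested.

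The REV-ERB genes and Dbp, direct outputs of the activators, had the widest ratio of highest to lowest library within the vehicle and ISRIB groups. Nr1d1 (chromosome 11, 98767932 to 98775333) was at 15.7, 29.3, 75.5 and 19.3 CPM after vehicle and at 37.3, 19.1, 25.6 and 50 CPM after ISRIB. Vehicle 3 was the highest of all 8 libraries and vehicle 1 the lowest, so the vehicle range enclosed the ISRIB range. Its log2 fold change of -0.12 (SE 0.37, adjusted p = 0.920, edgeR) became 0.62 without vehicle 3 (adjusted p = 0.247). Nr1d2 (chromosome 14, 18204054 to 18239127) was at 12.5, 24.0, 41.1 and 22.6 CPM after vehicle and at 28.5, 15.1, 25.3 and 28.9 CPM after ISRIB, in the same order of libraries as Nr1d1 within each group. Its log2 fold change was -0.06 (SE 0.25, adjusted p = 0.946, edgeR), and 0.32 without vehicle 3 (adjusted p = 0.505). Dbp (chromosome 7, 45705088 to 45710203), a D-box-binding activator, was at 1.67, 1.90, 4.06 and 1.55 CPM after vehicle and at 3.70, 1.92, 1.34 and 1.23 CPM after ISRIB, from 14 to 62 counts per library. Vehicle 3 and ISRIB 1 were high and the other six low, and the log2 fold change was -0.16 (SE 0.37, adjusted p = 0.888, edgeR), or 0.31 without vehicle 3 (adjusted p = 0.764).

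**Figure D2:**
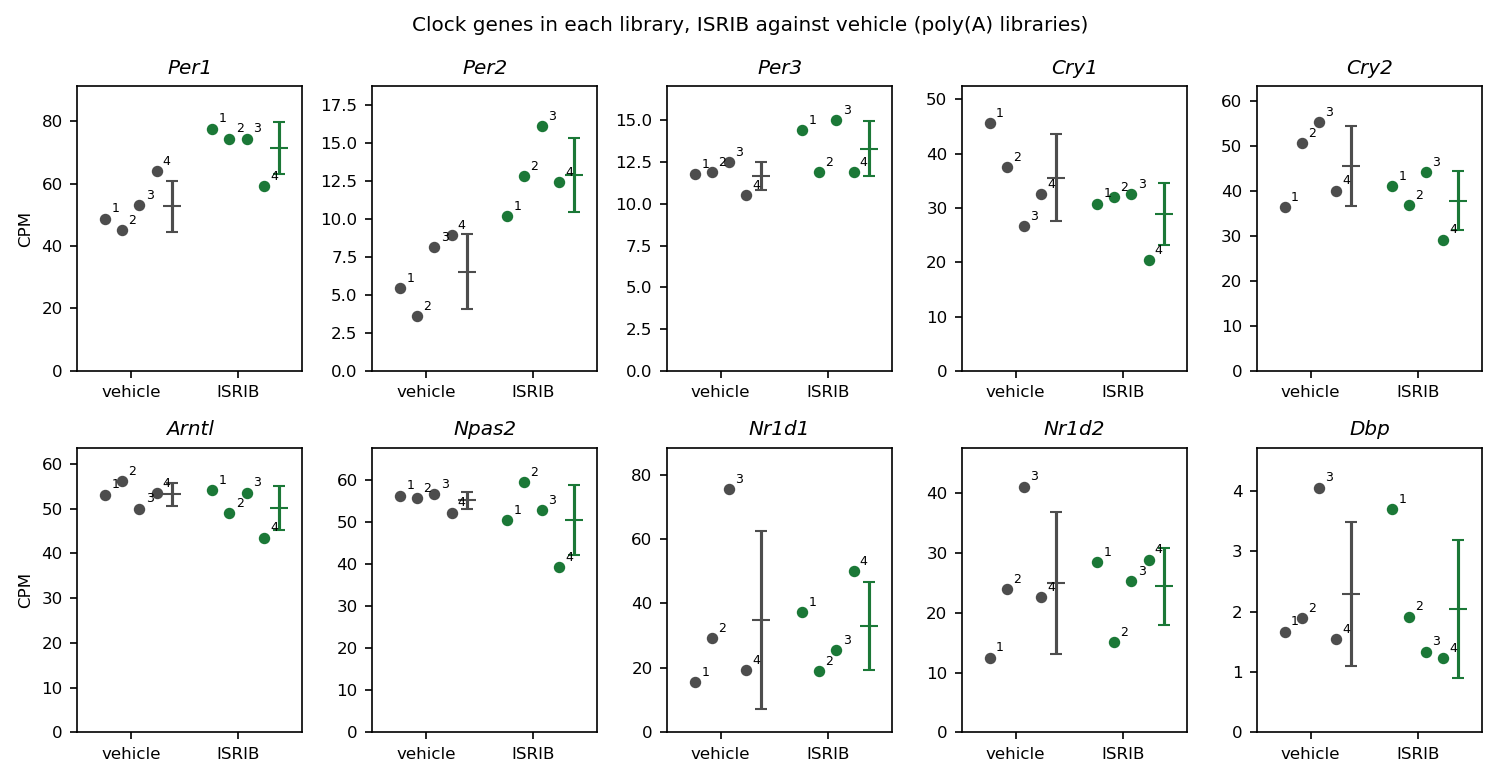
CPM (vertical axes, linear from 0, a scale for each gene) of the 10 clock genes in the poly(A) libraries, 4 vehicle (grey) and 4 ISRIB (green); numbers mark the replicate, the horizontal tick is the mean and the bar ± 1 SD. The ISRIB libraries lie above the vehicle libraries for Per2 alone, 10.2 to 16.1 against 3.62 to 8.93 CPM, and vehicle 3 is the highest point for Nr1d1, Nr1d2 and Dbp.

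A list of 22 other clock genes (among them the partner Clock, DEC repressors, kinases and output genes) was read from the same fit. Of these, 19 were tested after ISRIB, 7 with a positive and 12 with a negative log2 fold change, with a median of -0.04. Nfil3, a repressor that competes with DBP at D-boxes, was the 1 call, beside 2.20% of all genes called. It was at 28.5, 32.4, 24.3 and 32.1 CPM after vehicle and at 36.6, 35.7, 40.4 and 39.2 CPM after ISRIB, and every ISRIB library was above every vehicle library. Nfil3 rose by a log2 fold change of 0.38 with SE 0.09 (adjusted p = 0.0330, edgeR). That call was lost without vehicle 1 (0.37, edgeR adjusted p = 0.103), vehicle 3 (0.29, 0.0775), ISRIB 3 (0.35, 0.0823) or ISRIB 4 (0.37, 0.0850). Without vehicle 4, Bhlhe40 passed the test as lower (-0.39, adjusted p = 0.0197), from -0.29 (adjusted p = 0.125) with all libraries. Csnk1d, a casein kinase that phosphorylates PER proteins, also had groups that did not overlap (128 ± 3.20 CPM after vehicle, 142 ± 5.30 after ISRIB, SD, n = 4 each) but did not pass the test (0.14, SE 0.05, adjusted p = 0.170, edgeR). It was chosen for mention after its values were seen, and 8.65% of all genes tested had groups that did not overlap. Clock itself was at 71.5 ± 3.32 and 76.4 ± 6.85 CPM (SD, n = 4 each; 0.09, SE 0.07, adjusted p = 0.530, edgeR).

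Whether the clock genes differed in AT2 cells 14 days after bleomycin was asked by comparing 5 bleomycin with 4 naive libraries. Per2 rose, and Per3, Arntl and Npas2 fell, so the period genes moved in different directions and both measured activators among the members were lower. The other 6 members did not pass the test. With single libraries left out, Nr1d1 and Nr1d2 passed it only without bleomycin 2, singled out by the members' own values, and Cry2 only without bleomycin 1. With all libraries kept, Nr1d1 also passed under a replicate block, and Nr1d1 and Dbp passed without the low-count filter. All 10 members passed the low-count filter, 2 with a positive and 8 with a negative log2 fold change. The 4 calls (1 higher, 3 lower) compare with 20.5% of all 11223 genes called, 11.2% higher and 9.31% lower (edgeR quasi-likelihood test, Benjamini-Hochberg adjusted p under 0.05). At an unadjusted p under 0.05 stood 5 members. Their median log2 fold change was -0.32 beside 0.00 (0.0026) over all genes, and their median absolute log2 fold change 0.71 beside 0.31. Without bleomycin 2 the calls among the members came to 6, and without naive 4 to 2. Over all genes 2304 were called with every library. With single libraries left out that number ran from 1554 (without naive 4) to 2584 (without bleomycin 1), so the member counts cannot be read alone. Fibroblast and alveolar type 1 marker sums were also higher in these libraries, as given above, and their part in the clock values was not tested.

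Per2 was at 13.1, 14.1, 17.7 and 12.2 CPM in naive libraries 1 to 4 and at 50.3, 43.1, 30, 39.6 and 31.8 CPM in bleomycin libraries 1 to 5. Every bleomycin library lay well above every naive one. Groups that did not overlap were seen for 19.7% of all genes tested (10.4% higher, 9.35% lower) and for 3 members (Per2 higher, Arntl and Npas2 lower). The mean was 14.3 ± 2.42 CPM (SD, n = 4) in naive and 39.0 ± 8.30 CPM (SD, n = 5) in bleomycin libraries; the log2 change was 1.44 with SE 0.20 (adjusted p = 4.52e-05, edgeR). With any 1 library left out the change was 1.34 to 1.55, and the call held each time. Per2 was the 1 member that passed the test in both comparisons, higher in each, and whether its change differed between ISRIB and bleomycin was not tested.

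Per3 was at 38.6, 42.5, 33.9 and 44.1 CPM in naive libraries and at 34.7, 32.5, 20.6, 18.9 and 20 CPM after bleomycin. Bleomycin 3 to 5 were far below the naive range, bleomycin 2 just below it, and bleomycin 1 inside it. The mean was 39.8 ± 4.54 CPM (SD, n = 4) in naive and 25.3 ± 7.60 CPM (SD, n = 5) in bleomycin libraries; the log2 change was -0.66 with SE 0.19 (adjusted p = 0.0214, edgeR). The call was lost without naive 2 (-0.62, edgeR adjusted p = 0.0692), naive 4 (-0.61, 0.0768), bleomycin 3 (-0.58, 0.0590) or bleomycin 5 (-0.57, 0.0593). Per1 was at 81.5, 70.5, 54.0 and 99.5 CPM in naive libraries and at 102, 53.6, 51.6, 64.7 and 70.5 CPM after bleomycin. The Per1 groups overlapped over nearly their whole range, and its log2 fold change of -0.16 (SE 0.19, adjusted p = 0.599, edgeR) did not pass the test. The 3 period genes thus gave a rise, a fall and no call in the same libraries.

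Arntl, which carries the RORE core printed above, was at 75.8, 73.7, 70.0 and 82.6 CPM in naive libraries and at 45.0, 19.3, 62.6, 35.6 and 49.6 CPM after bleomycin. Every bleomycin library lay below every naive library, with bleomycin 3 the nearest and bleomycin 2 the farthest. The mean was 75.5 ± 5.29 CPM (SD, n = 4) in naive and 42.4 ± 16.2 CPM (SD, n = 5) in bleomycin libraries; the log2 change was -0.82 with SE 0.22 (adjusted p = 0.0121, edgeR). Without bleomycin 2 it was -0.63 (adjusted p = 0.00679), and the call held with each library left out in turn. Npas2 was at 73.5, 64.1, 76.6 and 92.7 CPM in naive libraries and at 39.9, 19.7, 54.7, 46.4 and 63.3 CPM after bleomycin. Its groups came close, bleomycin 5 lying just under naive 2, but did not overlap. Npas2 fell from 76.7 ± 11.9 CPM (SD, n = 4) to 44.8 ± 16.6 CPM (SD, n = 5); the log2 change was -0.77 with SE 0.23 (adjusted p = 0.0213, edgeR). It was -0.57 without bleomycin 2 (adjusted p = 0.0144), and the call was lost without naive 4 (-0.67, edgeR adjusted p = 0.0882).

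Nr1d1 was at 34.2, 44.7, 29.7 and 17.9 CPM in naive libraries and at 12.2, 51.4, 3.56, 4.33 and 19.6 CPM after bleomycin. Bleomycin 1, 3 and 4 were below every naive library, the last 2 far below, whereas bleomycin 2 was the highest of all 9. Over all libraries the log2 fold change was -0.77 (SE 0.51, adjusted p = 0.307, edgeR), and without bleomycin 2 it was -1.64 and passed the test (adjusted p = 0.00706). Nr1d2 was steady in naive libraries at 19.8, 21.2, 20.7 and 19.4 CPM, and was at 13, 44.2, 6.66, 10.8 and 9.34 CPM after bleomycin. Bleomycin 2 lay above, and the other 4 bleomycin libraries below, the whole naive range. The log2 fold change was -0.26 (SE 0.40, adjusted p = 0.699, edgeR), and -1.04 without bleomycin 2 (adjusted p = 0.00406), where it passed the test. In those 4 libraries the REV-ERB genes and the activators Arntl and Npas2 were below the naive means together.

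Dbp was at 3.35, 3.20, 1.50 and 2.38 CPM in naive libraries and at 2.12, 22.6, 3.72, 0.928 and 4.28 CPM after bleomycin, from 3 to 27 counts in each library except bleomycin 2, which had 125. Bleomycin 2 was far above the rest, bleomycin 3 and bleomycin 5 lay slightly above the naive range, bleomycin 1 within it and bleomycin 4 below it. Its log2 fold change of 1.38 (SE 0.69, adjusted p = 0.169, edgeR) did not pass the test and came to 0.14 without bleomycin 2 (adjusted p = 0.885). Exons of Dbp overlap those of Sphk2 on the opposite strand over 539 of 2993 bases, and whether counting used strand is not known from the labels or files used here. Sphk2 was at 27.8 CPM in bleomycin 2, the highest of its group (10.5 to 24.2 CPM in the other 4), and at 23 to 28.5 CPM in naive libraries. In the poly(A) libraries it was likewise the highest of its group where Dbp was, at 51.7 CPM in vehicle 3 (39.3 to 49.1 in the others) and 44.6 CPM in ISRIB 1 (33.6 to 37.2 in the others). Nr1d1 likewise shares 263 of 3077 exon bases with Thra on the other strand, which was at 68.4 CPM in bleomycin 2, 61.2 to 125 CPM in the other bleomycin libraries and 115 to 135 CPM in naive ones. The part of reads from these neighbours in the Dbp and Nr1d1 values was not tested. Bleomycin 2 also had the highest fibroblast marker sum (115 CPM), whose part in the clock values was not tested.

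Cry1 was at 21.8, 26.5, 28.8 and 25.9 CPM in naive libraries and at 15.6, 12.8, 40.4, 25.4 and 22.6 CPM after bleomycin. Bleomycin 1 and 2 were below and bleomycin 3 above the naive range. Its log2 fold change was -0.13 (SE 0.26, adjusted p = 0.765, edgeR), or 0.03 without bleomycin 2 (adjusted p = 0.949). Cry2 was at 64.4, 48.1, 62.8 and 58.1 CPM in naive libraries and at 58.5, 51.8, 34.5, 38.1 and 42.4 CPM after bleomycin. Bleomycin 3 to 5 were below the naive range and the other two within it. The log2 fold change of Cry2, -0.37 (SE 0.16, adjusted p = 0.11, edgeR), did not pass the test, but without bleomycin 1 it was -0.47 and passed (adjusted p = 0.0322).

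**Figure D3:**
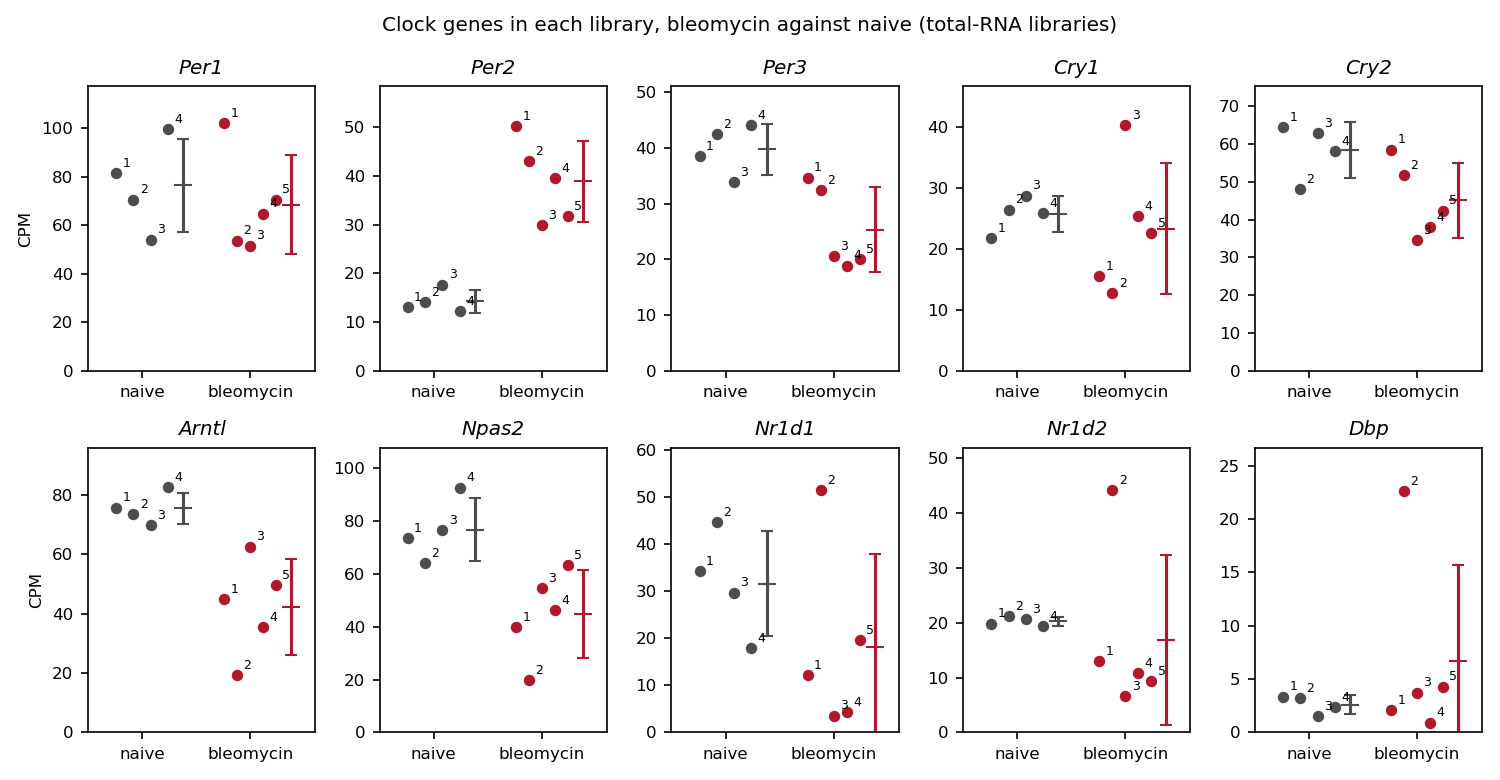
CPM (vertical axes, linear from 0, a scale for each gene) of the 10 clock genes in the total-RNA libraries, 4 naive (grey) and 5 bleomycin (red); numbers mark the replicate, the horizontal tick is the mean and the bar ± 1 SD, ending at the axis where it would pass below 0. Per2 is higher in all 5 bleomycin libraries and Arntl and Npas2 lower, while bleomycin 2 is by far the highest for Nr1d2 (44.2 CPM) and Dbp (22.6 CPM).

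**Figure D4:**
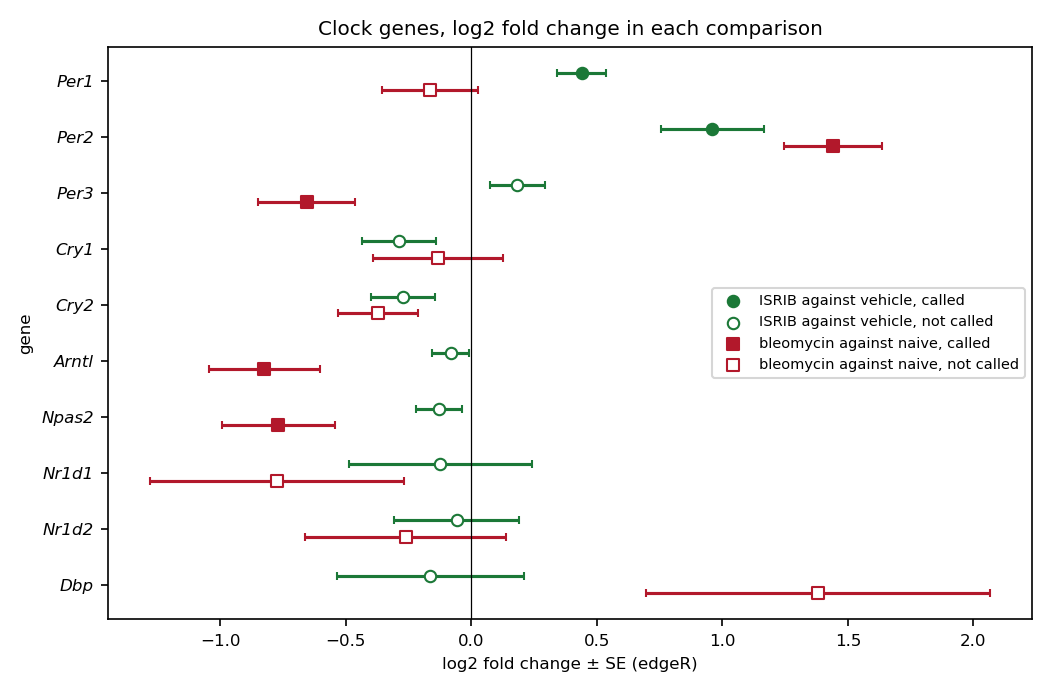
Log2 fold change (horizontal axis, edgeR) ± SE of each clock gene for ISRIB against vehicle (green circles) and bleomycin against naive (red squares), filled where the adjusted p was under 0.05. Per2 is filled and to the right of 0 in both comparisons (0.96 and 1.44), and the 3 filled squares to the left are Per3, Arntl and Npas2.

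Of the 22 other clock genes, 16 were tested after bleomycin, 10 with a positive and 6 with a negative log2 fold change, with a median of 0.09. The test called 5 higher and 2 lower, beside 20.5% of all genes. Bhlhe40, Csnk1d, Timeless and Tef, among those higher, and Rora, among those lower, are described here. Rora, a receptor that activates Arntl through the RORE, was at 94.9, 102, 85.6 and 94.5 CPM in naive libraries and at 39.4, 43.7, 48.2, 42.4 and 66.4 CPM after bleomycin. All bleomycin libraries were below all naive ones, and Rora fell with a log2 fold change of -0.97 with SE 0.15 (adjusted p = 0.000129, edgeR). Without bleomycin 2 the Rora call held (-0.93, adjusted p = 0.00028).

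Bhlhe40 (DEC1), a repressor at E-boxes, was at 75.8, 118, 77.5 and 79.3 CPM in naive libraries and at 136, 202, 120, 163 and 93.6 CPM after bleomycin. Its log2 fold change was 0.70 (SE 0.19, adjusted p = 0.0137, edgeR), and bleomycin 5 was within the naive range. Bleomycin 2 was the highest library, and without it the log2 fold change of Bhlhe40 was 0.54. The Bhlhe40 call was lost without naive 1 (0.63, edgeR adjusted p = 0.0567), naive 3 (0.64, 0.0533) or naive 4 (0.65, 0.0568). Csnk1d rose by 0.41 (SE 0.14, adjusted p = 0.0436, edgeR), from 66.4 ± 5.46 (SD, n = 4) to 88.0 ± 14.5 CPM (SD, n = 5). Timeless, known in mammals mainly for its role at replication forks, was at 1.97 ± 1.11 (SD, n = 4) in naive and 9.70 ± 3.5 CPM (SD, n = 5) in bleomycin libraries, without overlap (2.22, SE 0.44, adjusted p = 0.00148, edgeR). It had 2 to 15 counts in naive and 39 to 58 in bleomycin libraries. At least 10 counts were reached in 1 naive and all 5 bleomycin libraries, so Timeless passed the low-count filter only through the bleomycin group. Its call is therefore a description and not a test independent of the filter.

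Tef, a D-box activator related to DBP, was at 15.8, 16.7, 12 and 11 CPM in naive libraries and at 27.0, 53.1, 18.0, 20.4 and 14.6 CPM after bleomycin. It rose with a log2 fold change of 0.93 with SE 0.32 (adjusted p = 0.0427, edgeR), but bleomycin 2 was again the highest, and without it the change was 0.51 and no longer called (adjusted p = 0.147). The Tef call was also lost without bleomycin 1 (0.94, edgeR adjusted p = 0.0567) or any of the naive libraries (0.84 to 1.05, the highest adjusted p being 0.131 without naive 4). Csnk1d was called only with all libraries or without bleomycin 3, being 0.36 without bleomycin 2 (adjusted p = 0.0851), and Nfil3, lowest in bleomycin 2 at 11.2 CPM, was called higher without it (0.67, adjusted p = 0.0156, against 0.46 and 0.226 with it). Without bleomycin 2 the number called among the other clock genes was 6, while it was 3 without naive 1 or naive 4 and 4 without naive 2 or naive 3. Over all genes 2304 were called with every library and 1554 without naive 4. The number over all genes in the other fits named here is not given, so these counts cannot be read alone. Clock was at 112 ± 7.43 CPM in naive (SD, n = 4) and 98.8 ± 9.71 CPM in bleomycin libraries (SD, n = 5) and did not pass the test (-0.18, SE 0.11, adjusted p = 0.288, edgeR). Of the activator pair's genes, then, Arntl and Npas2 were called lower and Clock was not, and the difference between Clock and Npas2 was not tested.

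**Figure D5:**
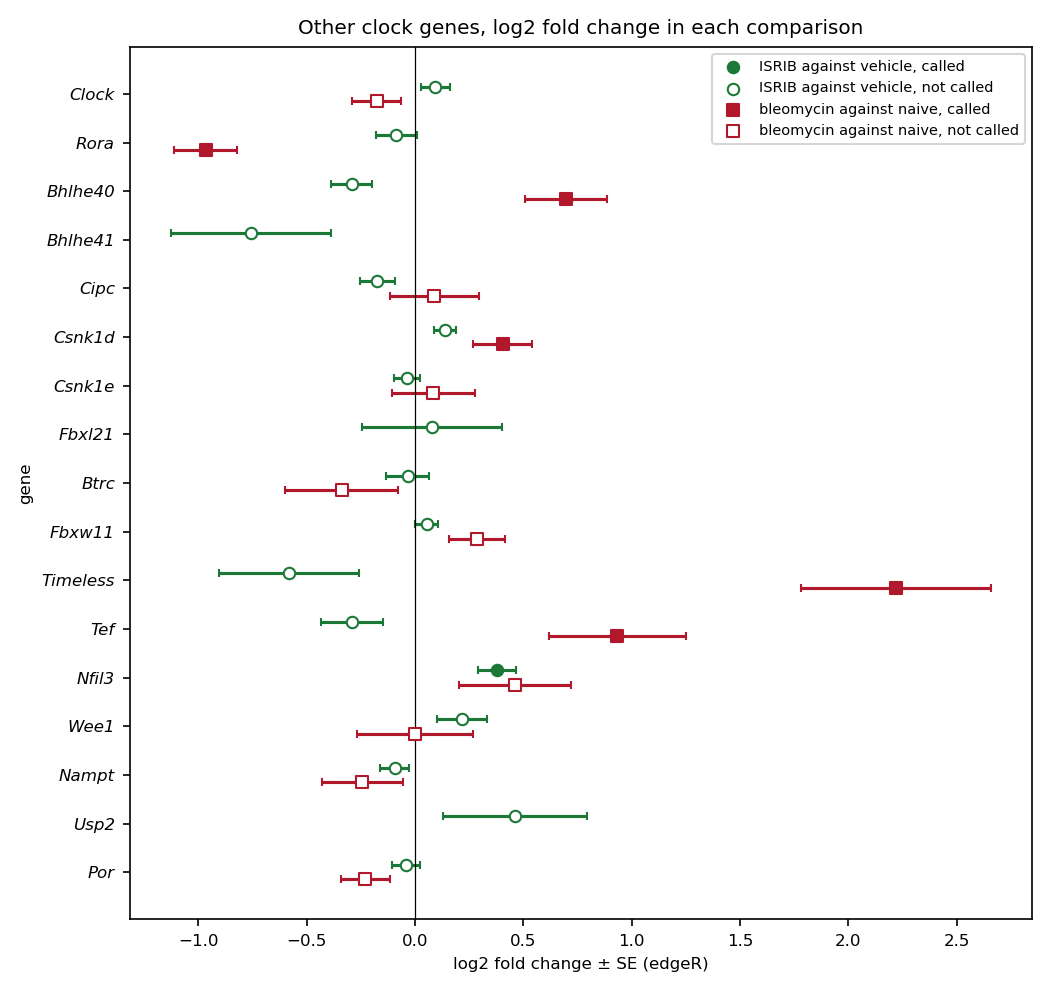
Log2 fold change (horizontal axis, edgeR) ± SE of other clock genes tested, for ISRIB against vehicle (green circles) and bleomycin against naive (red squares), filled where the adjusted p was under 0.05. Nfil3 is the 1 filled circle (0.38), and Timeless (2.22) and Rora (-0.97) lie farthest from 0 among the filled squares shown. Timeless passed the low-count filter only through the bleomycin libraries.

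How the members varied together was described by correlating log2 CPM deviations from group means, across libraries of one kit and with no test, since points share a library and its depth. Across the 9 total-RNA libraries Arntl had Pearson r = -0.953 with Nr1d2, 0.890 with Npas2, 0.729 with Cry1 and -0.691 with Nr1d1. Without bleomycin 2 these were -0.832, 0.63, 0.517 and -0.271, so the relation to Nr1d1 rested largely on that library. Dbp had r = 0.769 with Nr1d1, 0.706 with Nr1d2 and 0.669 with Tef there, and 0.488, -0.040 and 0.07 without bleomycin 2. In the 8 poly(A) libraries Arntl had r = 0.747 with Cry1, 0.554 with Npas2 and -0.169 with Nr1d2, which became 0.519, -0.188 and -0.015 without ISRIB 4. Dbp had r = 0.882 with Tef there, 0.536 with Nr1d1 and 0.47 with Nr1d2, or 0.857, 0.584 and 0.449 without ISRIB 1. Not every pair is given, and some others were as large. In the poly(A) libraries Dbp had r = -0.737 with Nfil3 and 0.603 with Cry2, and Arntl 0.586 with Per3 and -0.422 with Nr1d1. Arntl and Dbp had r = 0.182 in the poly(A) libraries. In the total-RNA libraries they had r = -0.551, or 0.375 without bleomycin 2.

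Genes outside the clock lists with the most similar pattern were named by the same measure. Among 9138 genes of at least 5 CPM in the total-RNA libraries, Hist1h4d (r = 0.970), Cyp4b1 (0.965) and Cx3cl1 (0.962) were most like Dbp, and 0.914, 0.909 and 0.904 without bleomycin 2. Acss1 (0.960), Zfp790 (0.960) and Zbtb16 (0.954) were most like Arntl, and 0.860, 0.933 and 0.836 without it. Among 9216 genes in the poly(A) libraries, Xpr1 (0.971), Pdgfa (0.963) and Pla2g6 (0.943) were most like Dbp, and Frem2 (0.981), Map3k12 (0.978) and Neo1 (0.971) most like Arntl. With so many genes ranked over so few libraries these values are a description only, and none of the genes named for one kit was named for the other.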

How the data were processed

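RNA was measured in 17 libraries of sorted AT2 cells. RNA was extracted with PicoPure and made into poly(A) libraries from 3 ng or total-RNA libraries from 0.35 ng, per the labels' protocols. The authors deposited whole-number read counts, not normalized, for each Ensembl gene, 1 table for each kit. The submitters' processing notes name bcl2fastq 2.19.1, FastQC, Trimmomatic 0.36, STAR 2.6.0, HTSeq 0.11.2 and build mm10, and neither annotation nor strand setting is given in the sources used here. Symbols, positions and exon lengths came from GENCODE M21 (GRCm38), and promoters from RefSeq.

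Each comparison was fitted within its kit over all genes: filterByExpr (minimum count 10, minimum total 15), TMM scaling and the two-sided quasi-likelihood test of edgeR 4.0.16 under R 4.3.3, with no covariate besides group, Benjamini-Hochberg adjusted over all genes tested and called under 0.05. The SE is the log2 fold change over the root of F. CPM use effective library sizes, and log2 CPM a prior count of 1. The procedure was tested on simulated data. Alternatives were RLE scaling, DESeq2 1.42.0, limma-voom (limma 3.58.1), no filter, a replicate block and each library left out. Members and lists were chosen with earlier results of these data known. All members were named, of the other clock genes those called in either comparison (some are not reported here), and the 3 genes most like Dbp and Arntl in each kit (mean of at least 5 CPM). Marker lists of alveolar type 2, alveolar type 1 and airway epithelial cells, macrophages, neutrophils, lymphocytes, endothelial cells and fibroblasts were read for levels.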

Additional observations from a re-analysis of the deposited data

Results flagged for a closer look

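Values far from the rest of their group, with a gap to the nearest library above Dixon's 95% critical value for the group's range, were found 5 times in 64 groups of values over 16 clock genes; chance flags about 1 in 20. Dbp (22.6 CPM) and Nr1d2 (44.2 CPM) were each far higher in bleomycin 2 than in the other bleomycin libraries. Dbp was also far higher in vehicle 3 (4.06 CPM) than in the other vehicle libraries. Cry1 was far lower in ISRIB 4 (20.4 CPM) than in the other ISRIB libraries. Bhlhe40 was far higher in naive 2 (118 CPM) than in the other naive libraries.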

How the results depend on the processing

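Per1 and Per2 after ISRIB, and Per2, Per3, Arntl and Npas2 after bleomycin, were called under RLE scaling, DESeq2, limma-voom and without the filter on low counts. RLE scaling moved the median of all genes by -0.00049 and -0.00054. Without the filter, genes called after ISRIB came to 648 (265 with it), members to 4 (Cry1 and Cry2 were added, lower) and other clock genes to 2. After bleomycin, members came to 6 without the filter (Nr1d1 and Dbp were added), and the count over all genes in that fit is not given here. Under limma-voom the other clock genes called after bleomycin came to 4, and the count over all genes in that fit is likewise not given here. With single libraries left out, genes called ran from 86 (without vehicle 1; 102 without vehicle 2 and 159 without ISRIB 4) to 269 after ISRIB and from 1554 to 2584 after bleomycin. Members called ran from 0 to 2 and from 2 (without naive 4) to 6, and other clock genes from 0 to 2 and from 3 to 7. Some log2 fold changes that were not called changed sign. After ISRIB, Nr1d1 was 0.03 (0.0299) under limma-voom and -0.38 to 0.62 with single libraries left out, Nr1d2 was 0.000317 under limma-voom and -0.28 to 0.32 (both above 0 without vehicle 3 or ISRIB 2), and Dbp -0.65 to 0.31 (above 0 without vehicle 3 or ISRIB 4). After bleomycin, Cry1 ran from -0.43 to 0.03 (0.0307, without bleomycin 2). The cause was not tested. Deviations of same-numbered libraries correlated at -0.106 to 0.086 for ISRIB and -0.038 to 0.048 for bleomycin. For libraries of different number they correlated at -0.162 to 0.135 and -0.159 to 0.108. With so few libraries these values cannot decide whether the replicate numbers pair them. Bleomycin 5 has no naive library of its number, so under a replicate block it adds nothing to the group difference. With the replicate block 277 genes were called after ISRIB (234 shared) and 2187 after bleomycin, 2 and 5 members (Nr1d1 was added at -1.41, adjusted p = 0.00956), and 1 and 6 other clock genes; with the block Nr1d1 and Nr1d2 after ISRIB were 0.06 (0.055) and 0.01 (0.0138). Depth limits what can be said of genes with few counts, such as Dbp and Timeless.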

Other observations

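Clock genes below the low-count filter after bleomycin are given as counts. Usp2, a clock-controlled deubiquitinase gene, had 2, 2, 1 and 0 counts in naive libraries 1 to 4 and 6, 43, 5, 3 and 18 in bleomycin libraries 1 to 5. Fbxl21 had 7, 9, 5 and 5 counts in naive and 1, 1, 4, 0 and 3 in bleomycin libraries. Bhlhe41 (DEC2) had 1, 12, 1 and 7 counts in naive and 7, 27, 1, 19 and 12 in bleomycin libraries. Ciart, an inhibitor of BMAL1, had 2, 4, 2 and 8 counts in naive and 5, 6, 0, 0 and 10 in bleomycin libraries. The D-box activator Hlf had at most 3 counts in any of these libraries, and Rorb likewise.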
